A study of Mus musculus with 4 samples.

Results

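Major urinary protein (Mup) genes encode small secreted carrier proteins of the lipocalin family. The liver makes most of these proteins, they pass through the blood into the urine, and there they bind volatile pheromones and slow their release. The genes lie side by side on chromosome 4 as a large array of recent duplicates with many pseudogenes between them. As background, male mice express more of them than females, their transcription depends on pulsatile growth hormone acting through STAT5B, and androgen, thyroid hormone and glucocorticoids also raise it. Mup20, also called darcin, encodes a pheromone in its own right.

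The 10 genes described here were Mup1, Mup2, Mup3, Mup7, Mup10, Mup14, Mup17, Mup20, Mup21 and the pseudogene Mup-ps4. They were taken by symbol from a read count table of 35275 rows, and each symbol matched 1 row. The genes were selected on the counts and ratios of these same libraries, with earlier results known, so every value below is a description without a test. In the table, 51 rows carried a symbol that starts with Mup, 21 of them protein-coding and 30 pseudogenes, and the sum over these 51 rows is given beside the single genes because the copies are nearly alike.

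Liver RNA came from female mice of 4 groups, named VS (vehicle and sedentary), VI (vehicle with interval training, IT), FS (fibril and sedentary) and FI (fibril with IT). All groups shared the Apoa2c genotype, an allele of apolipoprotein A-II that forms amyloid. The labels give the strain as AKR/J, whereas the study's methods give R1.P1-Apoa2c, a congenic line with this allele on the SAMR1 background. FS and FI mice had received AApoAII fibrils into a vein to start systemic amyloidosis, VS and VI mice had received the saline vehicle, and IT mice had run on a treadmill at alternating speeds. Training lasted 16 weeks, and the livers were taken at 26 weeks of age. Liver pieces of 4 mice were pooled in each group before extraction, which left 1 library for each group and 4 libraries from 16 mice. No value has a replicate error, and a difference between 2 libraries cannot be told apart from differences between the mice that were pooled.

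Total counts were between 23442935 and 28814802 per library, and a count of 0 allows up to 3 counts, which was 0.102 to 0.127 CPM. CPM here are counts scaled by library size and TMM factor to a library of 1000000. All 10 hepatocyte markers were found in every library, and of 4 Y-linked genes a single Uty read in VS was the only count. The VS library also held skeletal muscle transcripts, with a sum over 13 muscle markers of 78.5 CPM, whereas VI held 10.2 CPM and both fibril libraries held little, at 1.12 (FS) and 1.07 CPM (FI). All intervals below are at 95% and cover counting error only. They are exact, except those for differences between training ratios, which use a normal approximation on log counts. In liver tissue, fewer hepatocytes and less RNA per hepatocyte cannot be told apart.

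The copies differ in how well reads can be assigned to them, which sets how far each single value can be read. The coding sequences of Mup1, Mup2, Mup7, Mup10, Mup14 and Mup17 in GENCODE M21 were 98.5% to 99.4% identical to each other over their aligned bases (15 pairs). Mup3 was 83.1% to 84.1% identical to these 6 genes, and Mup21 was 83.5% to 84.4% identical to them. Mup3 and Mup21 were 96.3% identical to each other. Mup20 stood between, at 90.6% to 91.5% identity to the 6 genes and 88.0% to Mup3.

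The share of 100-base windows of a transcript that occur in no transcript of another annotated gene followed the same division. It was 97.1% for Mup3, 95.5% for Mup21 and 61.2% for Mup20. For the remaining coding genes it was 40.6% for Mup17, 18.4% for Mup7, 14.6% for Mup10, 12.8% for Mup1, 8.60% for Mup14 and 2.66% for Mup2. It was 54.8% for Mup-ps4. The values of Mup3 and Mup21 therefore rest on largely private sequence. Those of Mup20, Mup2, Mup10, Mup1, Mup14, Mup7, Mup17 and Mup-ps4 are uncertain as values of single genes. The sources used here do not give the read length or the treatment of reads that map to several places, and the reference is the C57BL/6J genome, not the strain that was sequenced. If reads that map to several places were not counted, the sum over all Mup rows also misses reads of the near-identical copies.

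**Figure D1:**
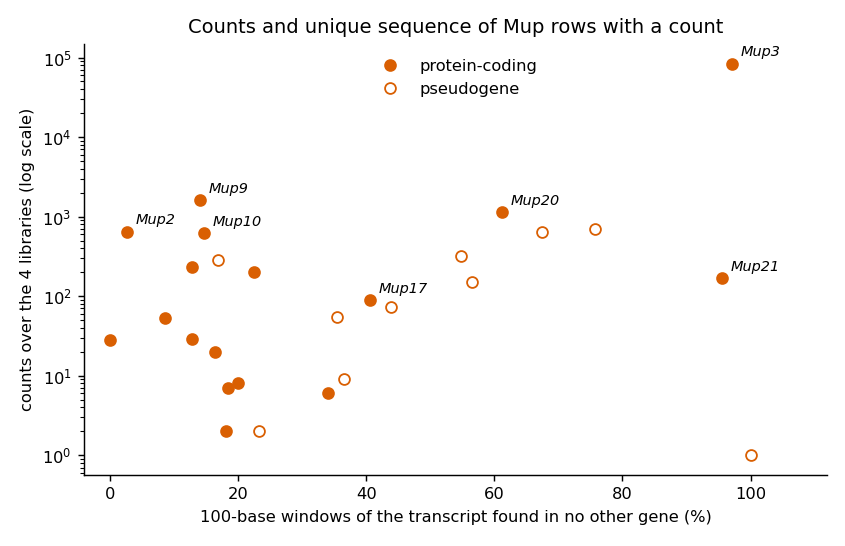
Each point is a Mup row with at least 1 count and a transcript in GENCODE M21, filled for protein-coding genes and open for pseudogenes. The horizontal axis gives the percentage of its 100-base windows found in no other gene, and the vertical axis its counts summed over the 4 libraries on a log scale. Mup3 sits far above all other rows at 97.1% unique windows.

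Sequence upstream of the genes fell into the same classes. RefSeq promoter windows on GRCm38.p6, 250 bases before to 50 after the annotated start, were found for 7 of the 10 genes. Mup1, Mup20 and Mup-ps4 were not matched. The stretches below are shown because they set Mup3 and Mup21 apart from the other copies. Each runs 5′ to 3′ on the minus strand over 110 bases and ends at TATATAA, which stands in capitals. Mup9, no member of the set, is included as the copy with the second highest counts of the family.
Mup3 (chr4:62087322-62087438): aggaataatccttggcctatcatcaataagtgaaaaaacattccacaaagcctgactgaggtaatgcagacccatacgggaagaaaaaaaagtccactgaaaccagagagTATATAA
Mup21 (chr4:62150843-62150959): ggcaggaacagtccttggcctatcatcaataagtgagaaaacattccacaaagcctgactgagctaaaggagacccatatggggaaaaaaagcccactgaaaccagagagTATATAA
Mup2 (chr4:60139877-60139993): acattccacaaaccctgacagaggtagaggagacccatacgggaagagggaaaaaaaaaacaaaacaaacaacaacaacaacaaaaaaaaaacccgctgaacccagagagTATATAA
Mup10 (chr4:60582179-60582295): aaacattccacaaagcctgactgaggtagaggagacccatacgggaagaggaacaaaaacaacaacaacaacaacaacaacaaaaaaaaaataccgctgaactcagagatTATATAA
Mup17 (chr4:61595851-61595967): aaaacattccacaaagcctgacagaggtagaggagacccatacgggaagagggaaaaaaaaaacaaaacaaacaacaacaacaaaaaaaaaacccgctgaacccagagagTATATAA
Mup9 (chr4:60421977-60422093): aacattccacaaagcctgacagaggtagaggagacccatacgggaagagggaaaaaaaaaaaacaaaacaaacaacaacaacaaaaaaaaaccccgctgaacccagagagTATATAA

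All 6 share the word CCCATA upstream of TATATAA. Between both words lay 34 bases in Mup3 and 31 bases in Mup21. In the other copies an A-rich stretch made this spacer longer, with 71 bases in Mup2, 70 in Mup9, 69 in Mup10, 68 in Mup17 and 59 in Mup14. Over the 80 bases that end with CCCATA, Mup3 and Mup21 were 92.5% identical. The 5 other copies with this word were 96.2% to 100% identical to each other, and 82.5% to 88.8% identical to Mup3 or Mup21.

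Both strands of the 7 windows were searched for 5 motifs. TATATAAGG, chosen after the sequences had been seen, was found in 6 of 7 windows, all but that of Mup7, against 0.307% of all 32851 promoter windows. TGTTCT, part of the element bound by the glucocorticoid receptor, was found in Mup3 and Mup21 only among the 7, against 19.0% of all windows. The STAT motif TTCNNNGAA was in none of the 7 windows, against 8.30% of all. TATAAA was also in none, against 13.6%, and CCAAT was in 3 (Mup7, Mup14 and Mup17), against 37.4%. No motif searched contains another, and TATATAAGG holds no TATAAA. A match is a run of letters and not a measured binding site.

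Mup3 carried nearly all reads that were assigned to Mup rows. Mup3 (ENSMUSG00000066154, mm10 chromosome 4, 62083476 to 62087342, minus strand) had 22504 counts in VS and 27076 in VI, against 16437 in FS and 17919 in FI. In CPM these were 953, 1111, 557 and 741. The level was highest in VI, lower in VS, lower again in FI and lowest in FS, and the counting intervals of the 4 libraries did not overlap. It was 1.17-fold higher in VI than in VS (log2 ratio 0.22, interval 0.20 to 0.25) and 1.33-fold higher in FI than in FS (0.41, 0.38 to 0.44). It was 1.71-fold lower in FS than in VS (−0.78, −0.80 to −0.75) and 1.5-fold lower in FI than in VI (−0.59, −0.61 to −0.56). Mup3 was thus higher with training in both backgrounds and lower with fibrils in both, and all of these differences were under 2-fold. Markers of Kupffer cells, macrophages and neutrophils were higher with fibrils. All 8 Kupffer cell and macrophage markers found, of 9 listed, were higher in FS than in VS and in FI than in VI, and their summed level was 261 CPM in VS and 315 in VI, against 396 in FS and 385 in FI. Of 7 neutrophil markers, the 3 that reached 1 CPM were higher in the same comparisons, with a sum over all 7 of 2.58 and 3.57 CPM in vehicle livers, against 18.3 and 13.7 CPM in fibril livers. The median log2 ratio of the 10 hepatocyte markers was 0.10 for FS versus VS and 0.08 for FI versus VI. The 8 Kupffer cell and macrophage markers and the 3 neutrophil markers were also all higher in VI than in VS, where Mup3 was higher too. Of 6 stellate cell markers, 2 were higher and 4 lower in each fibril comparison. Of 5 endothelial markers, 2 were higher and 3 lower in FS versus VS, and 3 higher and 2 lower in FI versus VI. The part of these cells in the lower Mup3 level was not tested. The level per length was 976 FPKM in VS and 1122 in VI, against 580 in FS and 734 in FI, and the mean over the 4 libraries was 853 FPKM for Mup3 against 12.1 FPKM for Mup20, the second highest of the 10 genes.

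The sum over all 51 Mup rows followed Mup3. It was 25448 counts in VS and 28284 in VI, against 18454 in FS and 18827 in FI, which was 1078, 1161, 625 and 778 CPM. As a share of all reads this was 0.109%, 0.115%, 0.0640% and 0.0759%. The order was again VI, VS, FI and FS, and no neighbours in this order overlapped in their counting intervals. The log2 ratio of the sum was 0.11 (0.08 to 0.13) for VI versus VS and 0.32 (0.29 to 0.35) for FI versus FS. It was −0.79 (−0.81 to −0.76) for FS versus VS and −0.58 (−0.60 to −0.55) for FI versus VI. Summed as FPKM, the VI versus VS ratio was 0.039.

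Mup3 made up 88.4% of the Mup counts in VS (88.0% to 88.8%), 95.7% in VI (95.5% to 96.0%), 89.1% in FS (88.6% to 89.5%) and 95.2% in FI (94.9% to 95.5%). The share was higher in both trained livers than in both sedentary livers. It is a share of assigned counts, and not of transcripts if reads shared between copies were left uncounted. Without Mup3, an alternative chosen after seeing the data, the remaining 50 rows summed to 2944 counts in VS and 1208 in VI, against 2017 in FS and 908 in FI, or 125, 49.6, 68.3 and 37.5 CPM. The log2 ratio of this remainder was −1.33 (−1.43 to −1.23) for VI versus VS and −0.86 (−0.98 to −0.75) for FI versus FS. The summed remainder was therefore lower with training, opposite to Mup3 and to the family sum. With fibrils it was lower, like Mup3, with −0.87 (−0.95 to −0.79) for FS versus VS and −0.40 (−0.53 to −0.28) for FI versus VI. Single rows did not all follow this sum. In FS and FI, Mup9 had 634 and 155 counts, and the pseudogene rows summed to 563 and 104. For FI versus FS the log2 ratios of Mup12, Mup17, Mup20 and Mup21 were 0.08, 0.75, 0.14 and 0.29, with intervals that reached 0. Those of Mup2, Mup10 and Mup1 were −0.84, −0.29 and −0.05.

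**Figure D2:**
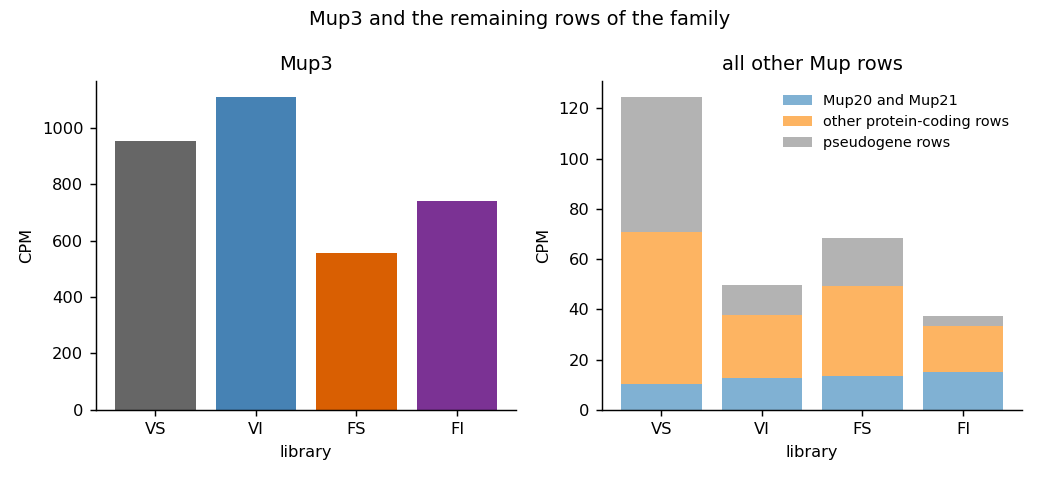
Bars give CPM in the 4 pooled libraries, for Mup3 on the left and, on a smaller scale on the right, for the 50 other Mup rows stacked as Mup20 with Mup21, other protein-coding rows and pseudogene rows. Mup3 is highest in VI at 1111 CPM, whereas the other rows together are highest in VS at 125 CPM and lower in both trained livers. There is 1 library per group and no replicate error.

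Mup20 and Mup21, the neighbours of Mup3 at one end of the cluster, were not lower in any comparison. Mup20 (ENSMUSG00000078672, chromosome 4, 62050234 to 62054158) was covered by 205 counts in VS and 271 in VI, against 353 in FS and 319 in FI, or 8.68, 11.1, 12.0 and 13.2 CPM. Its lowest level was in VS, and the 3 other libraries lay close together. The log2 ratio was 0.36 (0.09 to 0.63) for VI versus VS, 0.14 (−0.08 to 0.36) for FI versus FS, 0.46 (0.21 to 0.72) for FS versus VS and 0.24 (0.01 to 0.48) for FI versus VI. With fibrils, the Mup20 and Mup3 rows thus differed in opposite directions. With 61.2% unique windows, the Mup20 row is uncertain as a value of a single gene.

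Mup21 (ENSMUSG00000066153, chromosome 4, 62147932 to 62150863), the copy most like Mup3 in sequence, had few reads, with 33 counts in VS and 39 in VI, against 48 in FS and 48 in FI. In CPM these were 1.40, 1.60, 1.63 and 1.98, and their counting intervals overlapped. Its log2 ratios were 0.19 (−0.51 to 0.91), 0.29 (−0.32 to 0.90), 0.21 (−0.45 to 0.90) and 0.31 (−0.33 to 0.96) in the order used above. No difference was detectable at this depth. The fibril ratio of Mup21 in sedentary livers lay above that of Mup3, as its interval did not reach that of Mup3.

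The near-identical copies elsewhere in the cluster had low counts, and most were highest in VS. Mup2 (ENSMUSG00000078688, chromosome 4, 60135932 to 60154289) was covered by 321 counts in VS and 119 in VI, against 143 in FS and 65 in FI, or 13.6, 4.88, 4.84 and 2.69 CPM. Its level was highest in VS, lower and about equal in VI and FS, and lowest in FI. The log2 ratio of Mup2 was −1.47 (−1.79 to −1.17) for VI versus VS, −0.84 (−1.30 to −0.42) for FI versus FS, −1.49 (−1.78 to −1.20) for FS versus VS and −0.86 (−1.32 to −0.41) for FI versus VI.

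Mup10 (ENSMUSG00000078680, chromosome 4, 60578260 to 60582199) had 214, 150, 149 and 100 counts in VS, VI, FS and FI, or 9.06, 6.16, 5.05 and 4.13 CPM. It kept the order of Mup2 over a narrower range. Its log2 ratios were −0.56 (−0.87 to −0.25) for VI versus VS, −0.29 (−0.67 to 0.09) for FI versus FS, −0.84 (−1.16 to −0.54) for FS versus VS and −0.57 (−0.95 to −0.20) for FI versus VI.

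Mup1 (ENSMUSG00000078683, chromosome 4, 60498012 to 60501960) had 87, 66, 43 and 34 counts, or 3.68, 2.71, 1.46 and 1.41 CPM. It was lower in both fibril livers than in both vehicle livers, with log2 ratios of −1.33 (−1.90 to −0.80) for FS versus VS and −0.94 (−1.59 to −0.33) for FI versus VI. The training ratios, −0.44 (−0.93 to 0.03) and −0.05 (−0.74 to 0.63), had intervals that reached 0.

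Mup17 (ENSMUSG00000096688, chromosome 4, 61591929 to 61595871) had 38, 28, 10 and 14 counts, or 1.61, 1.15, 0.339 and 0.579 CPM. Both fibril livers were lower than both vehicle livers, with −2.20 (−3.42 to −1.22) for FS versus VS and −0.96 (−2.03 to −0.02) for FI versus VI. The training ratios were −0.48 (−1.24 to 0.26) and 0.75 (−0.50 to 2.10), and neither direction was detectable at this depth.

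Mup14 and Mup7 never reached 1 CPM. Mup14 (ENSMUSG00000073830, chromosome 4, 61300023 to 61304000) had 23, 5, 13 and 12 counts, so its highest library was VS and its lowest VI. Mup7 (ENSMUSG00000073842, chromosome 4, 60066469 to 60070475) had 1, 5, 1 and 0 counts, all close to the limit of detection, and no fold is given for it.

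**Figure D3:**
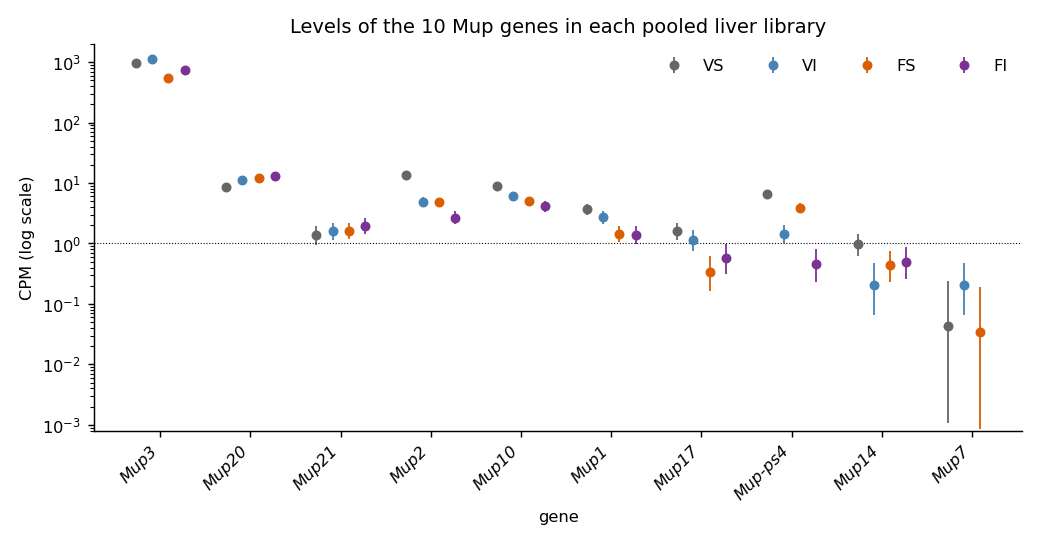
Points give the CPM of the 10 genes in the 4 pooled libraries on a log scale, and bars are exact Poisson intervals at 95% of the counts, without any replicate error. The dotted line marks 1 CPM, and a library with 0 counts (Mup7 in FI) has no point. Mup3 lies between 557 and 1111 CPM and no other gene is above 13.6 CPM.

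Mup-ps4 was the gene of the set with the largest difference with training. Mup-ps4 (ENSMUSG00000078685, chromosome 4, 60437362 to 60440064, plus strand) is a pseudogene that lies between Mup9 and Mup1. It had 156 counts in VS and 35 in VI, against 113 in FS and 11 in FI, or 6.61, 1.44, 3.83 and 0.455 CPM. Both trained livers were below both sedentary livers, by 4.55-fold in VI versus VS and by 8.09-fold in FI versus FS. The log2 ratios were −2.19 (−2.77 to −1.66) and −3.02 (−4.12 to −2.18), the second on 11 counts in FI. With 54.8% unique windows, the row is uncertain as a value of a single gene. The lower level with fibrils was smaller in sedentary livers, with a log2 ratio of −0.79 (−1.15 to −0.43), and was −1.62 (−2.79 to −0.65) in trained livers.

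Other Mup rows that reached 1 CPM were 2 coding genes and 6 pseudogenes. Mup9, a coding copy 99.1% to 99.6% identical to the 6 near-identical copies above, had 629 counts in VS and 177 in VI, against 634 in FS and 155 in FI, or 26.6, 7.27, 21.5 and 6.41 CPM. Only 14.1% of its windows are unique, so this is a value of reads assigned to the row and is uncertain for the single gene. The log2 ratios of the row were −1.87 (−2.12 to −1.63) and −1.74 (−2.01 to −1.49) with training against −0.31 (−0.47 to −0.15) and −0.18 (−0.50 to 0.14) with fibrils. Mup12 had 74, 45, 45 and 39 counts, and was highest in VS.

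The 6 pseudogenes were Mup-ps1, Mup-ps2, Mup-ps10, Mup-ps12, Mup-ps13 and Mup-ps14. Their unique windows ranged from 16.8% in Mup-ps2 and 35.5% in Mup-ps1 to 75.8% in Mup-ps13, so the single rows are uncertain as well. Mup-ps10 had 361, 99, 147 and 30 counts in VS, VI, FS and FI. Mup-ps13 had 377, 108, 177 and 35 counts. Mup-ps2 had 176, 35, 58 and 19 counts. In each of these rows VS was highest, FS second and FI lowest. Mup-ps12 had 110, 6, 33 and 2 counts, Mup-ps1 had 24, 4, 21 and 6, and Mup-ps14 had 63, 0, 10 and 1. The VS level of Mup-ps14 was 21.7-fold above the limit of 3 counts in VI, without counting error in VS. The exact interval of its log2 ratio for VI versus VS had an upper end of −4.10. Summed over all 30 pseudogene rows, the counts were 1274, 288, 563 and 104, or 53.9, 11.8, 19.1 and 4.30 CPM. The log2 ratio of this sum was −2.19 (−2.38 to −2.01) for VI versus VS and −2.14 (−2.47 to −1.85) for FI versus FS, nearly the same with and without fibrils. All 7 pseudogene rows that reached 1 CPM, Mup-ps4 included, are annotated on the plus strand, and all 9 such coding rows on the minus strand. The sources used here do not say whether the libraries kept strand.

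VS was the highest library of both the skeletal muscle markers and these low rows. The order of VI and FS was not shared by all. The muscle sum was 10.2 CPM in VI and 1.12 in FS, against 11.8 and 19.1 CPM for the pseudogene sum and 7.27 and 21.5 CPM for Mup9. Mup10, Mup1 and Mup17 were higher in VI than in FS, as the muscle sum was. All 11 muscle markers that reached 1 CPM were highest in VS, and all 11 had lower levels in VI versus VS, FS versus VS and FI versus VI, the 3 comparisons in which Mup2, Mup10, Mup1, Mup17 and the pseudogene sum were also lower. The muscle sums of FS and FI were 1.12 and 1.07 CPM. Between FS and FI, the pseudogene sum and Mup9 differed by about as much as between VS and VI. For Mup2, Mup10, Mup1 and Mup17 the log2 ratios were −0.84, −0.29, −0.05 and 0.75 for FI versus FS. For VI versus VS they were −1.47, −0.56, −0.44 and −0.48. The part of muscle transcripts in these results was not tested. Mup4, Mup5 and Mup6, which lie in the same cluster and have 98.7% to 100% unique windows, had 0 counts in all 4 libraries, which allows up to 0.127 CPM.

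**Figure D4:**
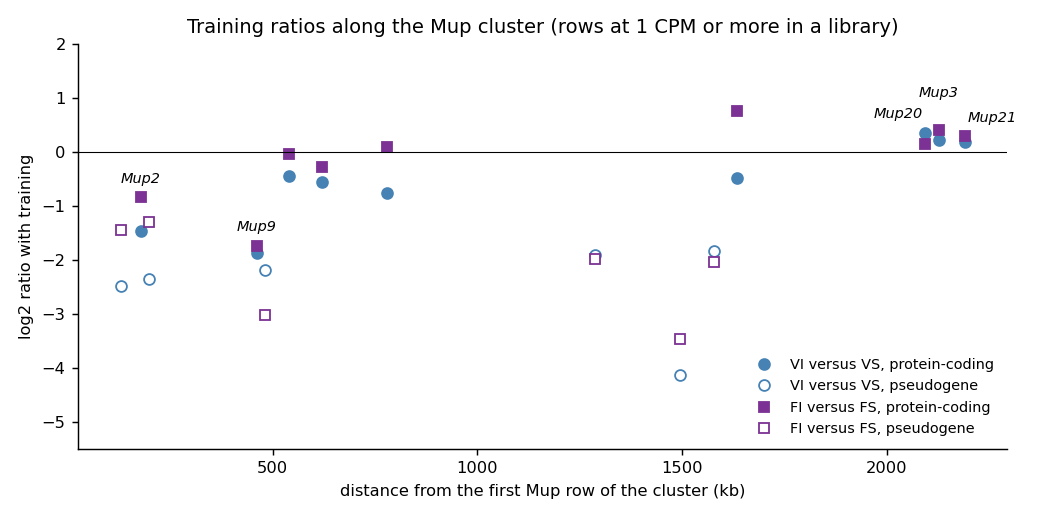
The horizontal axis gives the distance in kb from the first Mup row of the cluster, and the vertical axis the log2 ratio with training, as circles for VI versus VS and squares for FI versus FS. Filled symbols are protein-coding and open symbols pseudogene rows at 1 CPM or more in a library, and Mup-ps14 is left out because it has a count of 0. Mup20, Mup3 and Mup21 lie together at the far end with ratios above 0. All pseudogene rows shown lie below −1, and of these Mup-ps1 reached 1 CPM in VS only.

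Counts of members were read against all genes that reached 1 CPM in any library. These were 12180 rows, with 16 Mup rows and 8 of the 10 members among them. A difference of more than 2-fold was counted, with no test. In VI versus VS, 2 of the 8 members were lower (Mup2 and Mup-ps4) and none higher, against 1.90% of all genes lower and 1.54% higher. In FI versus FS, 1 was lower (Mup-ps4) and none higher, against 2.53% and 1.75%. In FS versus VS, 3 were lower (Mup1, Mup2 and Mup17) and none higher, against 2.20% and 3.60%. In FI versus VI, 1 was lower (Mup-ps4) and none higher, against 1.95% and 2.59%. Since the members were picked with these comparisons known, nothing is drawn from these shares. The 4 comparisons are not independent, as each library enters 2 of them.

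The median log2 ratio of the 8 members was −0.46, 0.05, −0.81 and −0.72 in these comparisons, against 0.00, 0.00, 0.02 and 0.01 over all genes tested. The second of the member medians had no stable sign, as it was −0.02 with total counts and the mean in its place was −0.32. The median of the members thus had the opposite sign to the family sum in VI versus VS, because Mup3 is 1 gene among 8 in the median and most of the reads in the sum. Over all 16 Mup rows the medians were −1.66, −1.07, −1.18 and −0.72, and the last was −0.85 without Mup-ps14, which had at most 1 count in both libraries of that comparison. With Mup-ps14 at its limit of 3 counts in VI, the first was also −1.66. Mup-ps1 and Mup-ps14 reached 1 CPM in VS only, and Mup17 in VS and VI only. The filter thus favoured ratios below 0 against the libraries through which such rows passed.

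**Figure D5:**
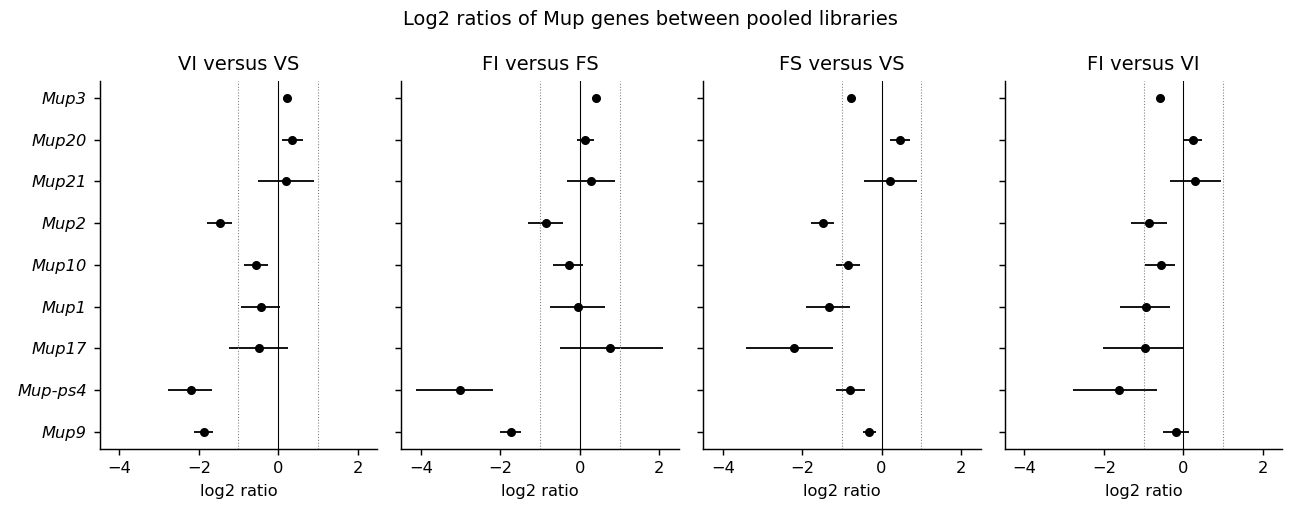
Each panel shows 1 comparison, with the log2 ratio of the 8 genes that reached 1 CPM, and of Mup9, as points and the exact interval for counting error as bars. Dotted lines mark 2-fold and the solid line no difference. Mup3 lies right of 0 in both training panels and left of 0 in both fibril panels, Mup20 and Mup21 lie right of 0 in all 4 panels, and Mup2 lies left of 0 in all 4.

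The training ratio in fibril livers was set against that in vehicle livers, with intervals from a normal approximation on log counts. For the sum of all Mup rows the log2 ratio was larger in fibril livers by 0.21 (0.17 to 0.25, counting error only), and for Mup3 by 0.19 (0.15 to 0.23). For Mup2 the difference was 0.63 (0.11 to 1.15), so its training ratio was less negative in fibril livers. For Mup14 it was 2.32 (0.58 to 4.06) on few counts, where this approximation is least reliable. For Mup20 it was −0.22 (−0.56 to 0.13), and for Mup-ps4 it was −0.83 (−1.85 to 0.19), with intervals that reached 0.

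Genes of the growth hormone pathway and other regulators of sex-biased liver expression were given by a list of 22, all above 1 CPM. Their median log2 ratio was 0.00 for VI versus VS, −0.07 for FI versus FS, −0.14 for FS versus VS and −0.28 for FI versus VI. The only difference above 2-fold was that of Socs3, a feedback inhibitor of cytokine signalling, which was higher in FS than in VS at 1.52 (1.31 to 1.74).

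Ghr, the growth hormone receptor, was at 446 CPM in VS and 392 in VI, against 296 in FS and 251 in FI. It was lower with fibrils, as Mup3 was, with −0.59 (−0.63 to −0.55) for FS versus VS and −0.64 (−0.69 to −0.60) for FI versus VI. It was also slightly lower with training, unlike Mup3, at −0.19 (−0.23 to −0.15) and −0.24 (−0.28 to −0.19). Stat5b, the transcription factor downstream of the receptor, was at 71.9, 80.2, 58.0 and 59.8 CPM. It had the order of Mup3 in vehicle livers and was lower with fibrils, at −0.31 (−0.41 to −0.21) and −0.42 (−0.52 to −0.32). Jak2, the kinase bound to the receptor, lay between 12.1 and 15.6 CPM, and Stat5a between 9.59 and 14.0 CPM.

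Of the growth hormone targets, Igf1, the circulating growth factor, was at 514, 679, 491 and 561 CPM. It was higher with training, at 0.40 (0.37 to 0.44) and 0.19 (0.16 to 0.23). Igfals, which holds IGF1 in the plasma complex, was at 157, 103, 83.3 and 77.0 CPM, highest in VS as were Mup2, Mup10, Mup1 and Mup17. Igfbp3, another part of that complex, lay between 14.9 and 20.1 CPM. The feedback genes Socs2 and Cish were higher with training in vehicle livers, at 0.50 (0.39 to 0.61) and 0.50 (0.15 to 0.87), and lower with training in fibril livers, at −0.30 (−0.42 to −0.19) and −0.71 (−1.11 to −0.33).

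Among the transcriptional regulators, Bcl6, a repressor that holds down female-biased genes, was lower with training, at −0.92 (−1.18 to −0.66) and −0.60 (−0.81 to −0.39). Onecut1 was higher with training, at 0.82 (0.36 to 1.31) and 0.61 (0.20 to 1.03), on 2.54 to 4.71 CPM. Hnf4a, a master regulator of hepatocyte genes, was higher at 0.20 (0.17 to 0.23) and 0.36 (0.33 to 0.38). Foxa2 was lower with fibrils at −0.62 (−0.76 to −0.47) and −0.82 (−0.98 to −0.66), and Foxa1 at −0.54 (−0.76 to −0.32) and −0.40 (−0.64 to −0.16). Trim24 was lower with training at −0.36 (−0.46 to −0.27) and −0.88 (−0.99 to −0.78). Zhx2, a repressor of several liver genes, lay between 12.3 and 15.9 CPM.

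Of the hormone receptors, Esr1, the estrogen receptor, was at 40.0, 45.1, 24.8 and 25.5 CPM, and so was lower in both fibril livers. Nr3c1, the glucocorticoid receptor, lay between 72.7 and 87.6 CPM, Thrb, the main thyroid hormone receptor of liver, between 26.6 and 34.4 CPM, and Thra between 5.91 and 8.06 CPM.

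Other sex-biased liver genes did not move as 1 block with Mup3. Of 20 male-biased genes, 13 reached 1 CPM, with medians of −0.21, −0.24, 0.26 and −0.01. By the fixed rule, Gstp1 (0.77 and 0.13), a glutathione transferase, and C4a (0.60 and 0.14) had the highest mean training ratios, and Nudt7 (−0.74 and −0.90), a peroxisomal coenzyme A hydrolase, and Serpina1e (−0.24 and −0.24), an antitrypsin gene, the lowest, each for VI versus VS and FI versus FS. Of 25 female-biased genes, all above 1 CPM, the medians were −0.22, −0.09, −0.13 and −0.22. Sult2a1, a bile acid and steroid sulfotransferase, was at 322, 38.4, 196 and 20.3 CPM, with training ratios of −3.07 and −3.27. Atp6v0d2, a proton pump subunit, had −1.01 and −1.51. Cyp2b10, a drug-metabolizing cytochrome P450, had 1.49 and 1.5.

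Among 12 other lipocalins, 8 reached 1 CPM, with medians of 0.31, −0.12, 0.79 and 0.44. The acute-phase members were highest in the fibril livers, in contrast to Mup3. Lcn2, which binds bacterial iron carriers, was at 6.35, 36.5, 367 and 549 CPM. Orm2, an acid glycoprotein, was at 9.70, 36.1, 149 and 97.4 CPM. Apom, the sphingolipid carrier of lipoproteins, lay between 404 and 477 CPM, and C8g, a complement subunit, between 227 and 382 CPM with training ratios of −0.34 and −0.23.

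Of 17 genes that flank the cluster, 10 reached 1 CPM, with medians of −0.04, −0.17, −0.08 and −0.04, near 0 in all comparisons. Hdhd3 was at 28.2, 15.4, 21.6 and 8.89 CPM, and Alad, a heme synthesis enzyme, at 417, 275, 211 and 146 CPM, both lower with training. Orm1, an acute-phase glycoprotein that is also a lipocalin, was at 344, 672, 1165 and 1059 CPM. Prpf4, a splicing factor, had training ratios of 0.33 and 0.20.

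The genes outside the family whose pattern over the 4 libraries lay closest to the Mup sum were found by Euclidean distance of centred log2 CPM, among 1794 genes with at least 5 CPM in a library and a range of at least 0.8 of that of the sum. They were Ddt, with a distance of 0.016, Lpcat3 at 0.067, Zfp30 at 0.076, A1cf at 0.091 and Gclc at 0.096. Ddt had 93 to 143 counts per library and Zfp30 had 86 to 137. Their VI versus VS intervals, −0.26 to 0.45 and −0.22 to 0.51, were wide beside these distances, so their rank is uncertain. Lpcat3, a phospholipid acyltransferase, was at 178 CPM in VS and 181 in VI, against 98.9 in FS and 127 in FI. Gclc, the catalytic subunit of the enzyme that limits glutathione synthesis, was at 351, 348, 197 and 235 CPM, without a difference between VS and VI beyond counting error. For the sum without Mup3, a comparison added after seeing the data, the closest among 352 genes were Cd36 (distance 0.14), Car3 (0.19), Inhbe (0.23), 2610528J11Rik (0.33) and Gamt (0.35). Cd36, a fatty acid transporter, was at 71.8, 26.5, 41.0 and 22.5 CPM. With only 4 points, each of which is 1 pooled library, such likeness is a description.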

How the data were processed

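Liver tissue of 16 female mice was pooled by group (4 mice each) and sequenced as 4 libraries. The authors deposited read counts per gene without normalization, and FPKM values, which equal the count divided by gene length and library total in every row above 0. The submitters' processing notes name fastp 0.23.2, STAR 2.5, HTSeq 0.6.1 and the build mm10. The sources used here do not give HTSeq settings, read length or strandedness, and 0 other columns of sample values were present.

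Counts were scaled by TMM with edgeR 4.0.16 in R 4.3.3. Log2 ratios used a prior of 0.5 counts and exact conditional binomial (Clopper-Pearson) intervals at 95%, and Poisson intervals were used for levels. Differences between training ratios had intervals at 95% from a normal approximation on log counts. All intervals are for counting error only. The ratio function was tested on simulated data. The filter required 1 CPM in any library, which 12180 of 35275 rows passed. With 1 library per group no test was run, and a fold of more than 2 was counted. Python 3.11.15 with SciPy 1.17.1, Biopython 1.88 and matplotlib 3.10.9 was used. Coordinates are those listed with the counts; 48 of 51 Mup rows have the same start and end in GENCODE M21, whose transcripts gave windows and coding identity (aligned bases, gaps left out, longest coding sequence). Protein identity was planned but not analysed here.

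Members and lists were chosen with earlier results of these data known. Named were the 10 members, other Mup rows with 1 CPM, the 5 genes closest to the Mup sum (at least 5 CPM, and at least 0.8 of its range), the 22 regulators, and up to 2 highest and 2 lowest genes per other list by mean training ratio at 5 CPM or more. Some genes that this rule names are not reported here. Mup4, Mup5, Mup6 and the genes closest to the sum without Mup3 were named after their values were seen. Alternatives were DESeq2 1.42.0 size factors, total counts, TMM without Mup rows, FPKM with a pseudocount of 1 or 0.1, a prior of 2 counts, a filter at 5 CPM or none, a fold of 1.5, all Mup rows, and the mean for the median.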

Additional observations from a re-analysis of the deposited data

How the results depend on the processing

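No paired analysis was possible because each group has 1 library, and for the same reason no replicate could be left out. Over 192 recomputed log2 ratios of single members, 0 changed sign and 188 moved by less than their counting interval. The other 4 were Mup3 in FI versus FS (0.34 with total counts or FPKM) and Mup17 in FS versus VS (−1.0 with FPKM and a pseudocount of 1). With FPKM (pseudocount of 1 or 0.1) the sum of all Mup rows was 0.039 in VI versus VS, 0.21 in FI versus FS and −0.61 in FI versus VI, and with total counts it was 0.25 in FI versus FS and the difference between the training ratios 0.16. Alternatives chosen after seeing the data left out Mup3. The sum was then −1.33, −0.86, −0.87 and −0.40 (both training comparisons, vehicle then fibril, followed by both fibril comparisons, sedentary then trained), the difference between training ratios 0.47, and the sum of coding rows −0.90, −0.57, −0.52 and −0.18. The member median in FI versus FS, 0.05, changed sign with total counts (−0.02), with FPKM (−0.004 and −0.02) as a mean (−0.32) and without Mup3, Mup20 and Mup21 (−0.29). The median was −1.66, −1.07 and −1.18 over all Mup rows in the first 3 comparisons, and −1.33 in FS versus VS without Mup3, Mup20 and Mup21. Members beyond 2-fold numbered 4, 2 and 3 without a filter in VI versus VS, FI versus FS and FI versus VI, 1 in FS versus VS with FPKM (pseudocount of 1) or a 5 CPM filter, and 3, 6 and 5 at 1.5-fold in the comparisons after the first. All genes beyond 2-fold numbered 419, 521, 706 and 553. They were 107, 117, 242 and 139 with FPKM and a pseudocount of 1, 269 in VI versus VS with 0.1, 144, 203, 353 and 229 with a 5 CPM filter, 4030, 4177, 4567 and 4197 without a filter and 1418, 1647, 2140 and 1702 at 1.5-fold. The cause of these differences was not tested. At under 100 counts, as for Mup1, Mup7, Mup14, Mup17 and Mup21, counting error limits the ratios.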
